A study of Mus musculus with 4 samples.

Results

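Signals of 9 mouse genes of the Wnt pathway were followed over 4 cell populations on the way from mesoderm to cardiomyocytes. They were 5 Wnt ligands (Wnt3, NM_009521, Wnt3a, NM_009522, Wnt5a, NM_009524, Wnt11, NM_009519, and Wnt2, NM_023653) and 4 genes known as targets of Wnt signaling (Axin2, NM_015732, Dkk1, NM_010051, Lef1, NM_010703, and Sp5, NM_022435). They were taken by their RefSeq identifiers, from a choice made with earlier results of these data known, and all 9 were found, with 10 probes of 39428 and as 9 of the 32394 genes or transcript identifiers on the array. Axin2 had 2 probes and each of the other genes 1.

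Total RNA of sorted cells was hybridized to 1-color Agilent arrays, with 1 array per population, all on 1 slide. All populations came from mouse embryonic stem cells of 1 line, EMG7, which carries GFP under the αMHC promoter, differentiated without leukemia inhibitory factor. Flk1+ MPCs were Flk1+ mesodermal precursor cells sorted at day 4.5, before plating on OP9 stromal feeder cells. PCBs were PDGFRα+Flk1- cells sorted at day 5.5 from Flk1+ MPCs cultured on OP9 cells with CsAYTE, which combines Cyclosporin A with Y27632 (a ROCK inhibitor), Trolox (an antioxidant) and EW7197 (an ALK5 inhibitor). sfPCBs were the corresponding day 5.5 cells formed spontaneously, without CsAYTE and with DMSO as the vehicle. M+CMs were αMHC+ cardiomyocytes at day 10.5, which the authors describe as derived from PCBs. Their label does not say whether CsAYTE was used. Treatment and feeders cannot be told apart from the age of the cells in any comparison with Flk1+ MPCs or M+CMs, whereas sfPCBs and PCBs were of the same day. OP9 cells are mouse cells, so their RNA hybridizes to the same probes.

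Since each population had a single array, populations could not be tested against one another, and every value below describes these 4 RNA samples. The scaled signal is the scanner software's background-subtracted intensity after the 75th percentile of each array was set to 1 level, and the error of a ratio is that software's error for the spots, which leaves out differences between cultures. For the members it was at most 14.4% of each signal that lay well above background. Between 72.9 and 76.0% of the probes of an array were called well above background, and the lowest such signal was between 15.1 and 15.9. In bulk RNA, fewer cells with a transcript and less of it per cell cannot be told apart.

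Wnt proteins are lipid-modified secreted ligands that bind Frizzled receptors. In the canonical branch, binding with the co-receptors Lrp5 or Lrp6 stabilizes β-catenin, which enters the nucleus and activates genes with TCF/LEF factors. Canonical signaling, with Wnt3 and Wnt3a among its ligands, is needed for the primitive streak and mesoderm, and later inhibits the choice of a cardiac fate, whereas Wnt5a and Wnt11 act mostly through β-catenin-independent branches that have been linked to heart formation.

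The start regions of the genes with the widest span of signals are shown first, since TCF/LEF factors bind a short motif of which 4 spellings are common. Promoter sequences of RefSeq (build GRCm38.p6), running from 250 bases before the start of transcription to 50 bases after it, were at hand for 8 of the 9 genes and not for Wnt5a. They were searched on both strands for the spelling CTTTGAA, the spelling CTTTGAT, the spelling CTTTGTA and the spelling CTTTGTT, of which only 1 can stand at a given place on a strand. Capitals mark a match, and a match on the minus strand appears as its reverse complement. The 3 genes with the widest span are Sp5 (chr2:70474673-70474972, plus strand), Dkk1 (chr19:30549447-30549746, minus strand) and Wnt3 (chr11:103773925-103774224, plus strand), and Wnt2 (chr6:18030396-18030695, minus strand), whose pattern over the arrays was another one, is set beside them.
Sp5: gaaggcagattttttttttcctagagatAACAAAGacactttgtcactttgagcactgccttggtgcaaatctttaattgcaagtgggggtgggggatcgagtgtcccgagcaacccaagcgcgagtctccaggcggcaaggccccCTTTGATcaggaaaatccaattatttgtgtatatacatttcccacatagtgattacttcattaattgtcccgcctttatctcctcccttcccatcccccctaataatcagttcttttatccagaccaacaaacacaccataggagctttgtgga
Dkk1: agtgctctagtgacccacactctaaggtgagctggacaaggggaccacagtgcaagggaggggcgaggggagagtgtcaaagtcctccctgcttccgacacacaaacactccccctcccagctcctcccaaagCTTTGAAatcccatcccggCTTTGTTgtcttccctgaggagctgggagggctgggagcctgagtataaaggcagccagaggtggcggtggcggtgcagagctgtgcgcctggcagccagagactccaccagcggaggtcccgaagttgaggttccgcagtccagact
Wnt3: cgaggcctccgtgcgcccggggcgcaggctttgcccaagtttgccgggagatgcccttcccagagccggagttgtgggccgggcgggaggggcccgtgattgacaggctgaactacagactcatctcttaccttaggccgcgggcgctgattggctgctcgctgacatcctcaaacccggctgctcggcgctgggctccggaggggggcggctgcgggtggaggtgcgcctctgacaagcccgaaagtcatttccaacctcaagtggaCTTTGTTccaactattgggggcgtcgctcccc
Wnt2: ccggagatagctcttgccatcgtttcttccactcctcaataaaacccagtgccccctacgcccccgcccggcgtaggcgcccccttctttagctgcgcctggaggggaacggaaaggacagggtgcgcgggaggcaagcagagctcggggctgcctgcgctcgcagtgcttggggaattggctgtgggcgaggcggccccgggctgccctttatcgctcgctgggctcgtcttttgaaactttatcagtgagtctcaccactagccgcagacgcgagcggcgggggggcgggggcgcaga
Counting the first transcribed base as 1 and the base before it as -1, Sp5 held CTTTGAT from -104 to -98 and, on the minus strand, CTTTGTT from -222 to -216. Dkk1 held CTTTGAA from -117 to -111 and CTTTGTT from -98 to -92. Wnt3 held 1 match, CTTTGTT, after the start, from 19 to 25, and Wnt2 held none. Of the other genes, Wnt11 had CTTTGAT from -51 to -45 on the minus strand of its first listed promoter, and Lef1 had CTTTGTA from -147 to -141 on the minus strand of the last of its 4 promoters. Axin2 and Wnt3a had none of these letters in the window. In all, 5 of 8 genes had a match in at least 1 promoter, beside 18.9% of the 27025 genes and 16.9% of the 32851 promoters in the table. A match describes the letters of this window and not a bound site.

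Among the ligands, Wnt3, which is required for the primitive streak in the embryo, had the widest span. Its scaled signal was 8994 in Flk1+ MPCs, then 838 in sfPCBs and 8.15 in PCBs, and 3.51 in M+CMs, and the last 2 were not well above background. The signal was thus high at day 4.5, lower at day 5.5 in cells without CsAYTE, and not measurable in PCBs or M+CMs. Wnt3a, a close relative of Wnt3 that acts in posterior mesoderm, lay between 3.50 and 4.38 and was not well above background on any array, close to the negative control spots with their medians between 3.47 and 3.70. No ratio is given for Wnt3a.

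Wnt5a and Wnt11, the ligands of the β-catenin-independent branches, were each measured at much the same signal on all 4 arrays. Wnt5a was at 4883 in Flk1+ MPCs, then 5526 in sfPCBs and 5870.5 in PCBs, and 3182 in M+CMs. Its first 3 values lay within 2 errors of one another and M+CMs below them. Wnt11 was at 904 in Flk1+ MPCs, then 699 in sfPCBs and 878 in PCBs, and 927 in M+CMs, and each of these lay within 2 errors of its neighbor in the order. Wnt2, a ligand known in the inflow part of the embryonic heart, had its highest signal in PCBs. It was at 287 in Flk1+ MPCs, then 202 in sfPCBs and 2151 in PCBs, and 492 in M+CMs, and with the populations ordered by level every step was wider than 2 errors. The narrowest step, between Flk1+ MPCs and sfPCBs, was not so under all alternatives, where its log2 ratio ran from -0.66 to -0.17.

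Of the targets, Sp5, a zinc finger factor that is induced directly by β-catenin and TCF/LEF, was at 47602 in Flk1+ MPCs, then 1428 in sfPCBs and 102 in PCBs, and 45.8 in M+CMs. Dkk1, a target that encodes a secreted inhibitor of the Lrp5 and Lrp6 co-receptors, was at 28991 in Flk1+ MPCs, then 2552 in sfPCBs and 1160.2 in PCBs, and 34.4 in M+CMs. For both genes the signal descended from Flk1+ MPCs through sfPCBs and PCBs to M+CMs, which is also the order of Wnt3 as far as Wnt3 could be measured. Lef1, itself a TCF/LEF factor, was at 8109 in Flk1+ MPCs, then 1475 in sfPCBs and 2175 in PCBs, and 539.9 in M+CMs, so that PCBs lay above sfPCBs.

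Axin2, a scaffold of the complex that degrades β-catenin and a widely used target of the pathway, was read by 2 probes. The first gave 4012 in Flk1+ MPCs, then 313 in sfPCBs and 330.4 in PCBs, and 490.4 in M+CMs, and the second gave 285, 32.9, 50.1 and 46.8 in the same order of populations. Both were highest in Flk1+ MPCs. Among the later populations they disagreed, since the first was higher in M+CMs than in PCBs by 0.57 on the log2 scale (error 0.21) and the second was not (-0.10, error 0.25). They also disagreed on the size of the step from Flk1+ MPCs to PCBs, with log2 ratios of -3.60 and -2.51. The value for the gene is the mean of both on the log2 scale, and on it PCBs and M+CMs lay within 2 errors of each other. In all, 8 of the 9 genes were well above background on at least 1 array and 7 were so on all 4. Of the 8, 5 were highest in Flk1+ MPCs, beside 9615 of the 26528 genes well above background on at least 1 array.

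**Figure D1:**
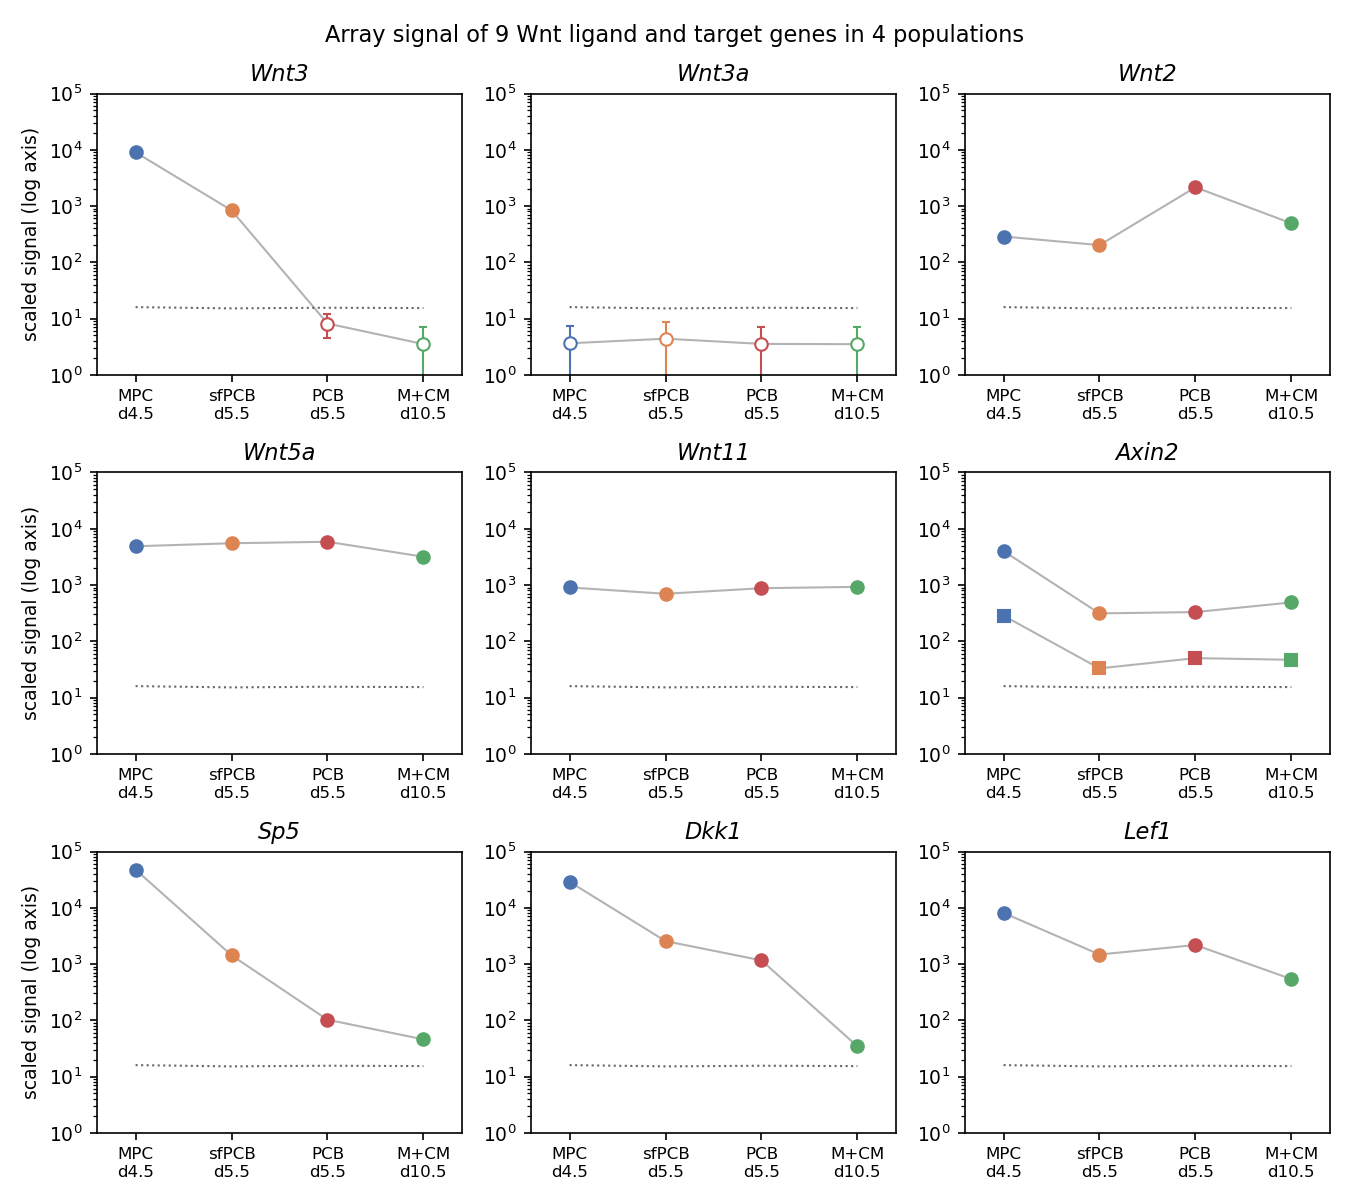
Scaled signal (log axis, arbitrary units) of each gene in the 4 populations, 1 array each, with bars for the software's error, open symbols for signals not well above background, squares for the second Axin2 probe, and a dotted line at the lowest signal among probes well above background. Wnt3, Dkk1 and Sp5 descend from left to right, Wnt5a and Wnt11 stay nearly level, Wnt2 peaks in PCBs at 2151, and Wnt3a lies under the dotted line throughout.

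The comparison of PCBs with Flk1+ MPCs asks what differed 1 day after the sorted mesoderm cells were put into culture with CsAYTE. Of the 8 members that could be compared, 4 were at least 4-fold lower in PCBs, beside 2.82% of 25180 genes, and 1 was at least 4-fold higher, beside 5.26% of them. Wnt3 was at least 578-fold lower, a bound because its PCB signal was replaced by the lowest signal well above background. This size depends on how low signals are treated, and over the alternatives run the log2 ratio of Wnt3 ran from -10.11 to -6.89 and that of Sp5 from -8.87 to -8.12. Sp5 was 466-fold lower (log2 ratio -8.86 with an error of 0.21), Dkk1 24.99-fold (-4.64, error 0.20) and Axin2 8.31-fold (-3.05, error 0.15). Lef1, at 3.73-fold lower, stood just short of the limit. Wnt2 was 7.49-fold higher (2.91, error 0.20), while the log2 ratios of Wnt5a and Wnt11 were 0.27 and -0.04. Among all genes compared, 0.0238% had a log2 ratio below that of Sp5 and 97.0% one below that of Wnt2. The median log2 ratio of all genes compared was -0.19.

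The comparison of sfPCBs with Flk1+ MPCs uses the same Flk1+ MPC array, so its values are set beside the former and not counted as a second observation. Here 5 of 8 members were at least 4-fold lower, beside 2.11% of 25072 genes, and 0 were at least 4-fold higher, beside 5.43%. Sp5 was 33.3-fold lower in sfPCBs (log2 ratio -5.06), Dkk1 11.4-fold (-3.51), Wnt3 10.7-fold (-3.42), Axin2 10.5-fold (-3.40, at its weakest -2.62 with normexp background correction) and Lef1 5.50-fold (-2.46). Both day 5.5 populations thus had lower signals of Wnt3 and all 4 targets than Flk1+ MPCs, and the direction of these 5 genes was shared while their sizes were not. Wnt2 had a log2 ratio of -0.51 (error 0.21), in the opposite direction to its ratio in PCBs. The median over all genes compared was -0.21, and 31.1% of them had a ratio below that of Wnt2. Wnt5a and Wnt11 had log2 ratios of 0.18 and -0.37.

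PCBs and sfPCBs were of the same day and, by their labels, differed in CsAYTE. At least 4-fold higher in PCBs was 1 member of 8, Wnt2, beside 1.37% of 24566 genes, and at least 4-fold lower were 2, Wnt3 and Sp5, beside 1.81%. Wnt2 was 10.7-fold higher in PCBs (log2 ratio 3.42, error 0.21), above the ratio of 99.6% of all genes compared. Sp5 was 14.0-fold lower (-3.81, error 0.21) and Wnt3 at least 53.9-fold lower, with log2 ratios over the alternatives from -3.96 to -3.14 for Sp5 and from -6.68 to -3.63 for Wnt3. Dkk1 was 2.20-fold lower (-1.14). Axin2 and Lef1 had ratios in the other direction, 0.34 (error 0.17) and 0.56 (error 0.20), and Wnt5a and Wnt11 had 0.09 and 0.33. The 4 targets therefore did not share a direction in this comparison: Sp5 and Dkk1 were lower in PCBs, whereas Lef1 was higher by more than 2 errors. Over the alternatives the log2 ratio of Lef1 ran from 0.41, about 2 errors, to 0.56. Among all genes compared, 88.0% had a ratio below that of Lef1 and 5.06% one below that of Dkk1. For Axin2 the difference rested on the second probe, which went from 32.9 to 50.1, while the first went from 313 to 330.4.

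Markers of other cells also differed between these 2 arrays. A cardiomyocyte list of 7 genes summed to 4264 in sfPCBs and 275132 in PCBs, against 6741 in Flk1+ MPCs and 1049615 in M+CMs. All 8 genes of a list for OP9 or stromal cells were well above background in sfPCBs, with a summed signal of 268275, and 7 of 8, all but Postn, in PCBs, with 144479, against 3174 in Flk1+ MPCs and 22365 in M+CMs. These sums hide differences between genes. Lum, Dcn and Postn, 3 of the 8, were at least 4-fold lower in PCBs than in sfPCBs, beside 1.81% of all genes. The other 5 differed by less than 4-fold, and among them Thy1 was highest in Flk1+ MPCs. An endothelial list summed to 3332 in sfPCBs and to 263 in PCBs, where Cdh5 was not well above background. A list for Flk1+ mesoderm summed to 11757 in sfPCBs and 11526 in PCBs, but Pdgfra made up 9136 of the sum in PCBs and 3647 of that in sfPCBs. Of the 6 genes of this list, 3 were at least 4-fold lower in PCBs than in sfPCBs and 0 higher, beside 1.81% and 1.37% of all genes. Mesp1, Mixl1 and T were well above background only in sfPCBs and Flk1+ MPCs among the 4 arrays, and Mesp1 was at 179 in sfPCBs against 42204 in Flk1+ MPCs. The part that such cells had in the signals of Wnt3, Sp5 and Wnt2 was not tested.

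In M+CMs against PCBs, which spans days 5.5 to 10.5, 3 of 7 members compared were at least 4-fold lower, beside 5.72% of 25443 genes, and 0 were at least 4-fold higher, beside 5.82%. Dkk1 was 33.7-fold lower (log2 ratio -5.08, error 0.25), the widest step of any member here, with a range over the alternatives from -5.29 to -3.47. Wnt2 was 4.37-fold lower (-2.13) and Lef1 4.03-fold (-2.01), both close to the limit. Under normexp background correction in place of the software's own, Dkk1 was the 1 member left past 4-fold. Sp5 was 2.23-fold lower (-1.16, error 0.24, over the alternatives from -1.38 to -0.46) and Wnt5a 1.85-fold lower (-0.88), while Axin2 and Wnt11 had log2 ratios of 0.24 and 0.08. Wnt3 and Wnt3a were not well above background on either array.

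In M+CMs against Flk1+ MPCs, which reuses both arrays, 5 of 8 members were at least 4-fold lower, beside 7.12% of 25801 genes, and 0 were at least 4-fold higher, beside 8.996%. Sp5 was 1040.3-fold lower (log2 ratio -10.02, error 0.23), Dkk1 843-fold (-9.72, error 0.25), Wnt3 at least 587-fold, Lef1 15.02-fold (-3.91) and Axin2 7.05-fold (-2.82). Over the alternatives these log2 ratios ran from -10.05 to -8.58 for Sp5, from -9.75 to -7.97 for Dkk1, from -11.32 to -6.86 for Wnt3 and from -3.00 to -2.22 for Axin2. Read singly, the 2 probes of Axin2 gave -3.03, just outside that range, and -2.60. Wnt2 was at 0.78 on the log2 scale, Wnt11 at 0.03 and Wnt5a at -0.62. Wnt3, Axin2, Dkk1 and Sp5 were the 4 members at least 4-fold below Flk1+ MPCs in each of the 3 later populations. These 3 comparisons use the same Flk1+ MPC array, so they are not separate observations. How many of all genes had such a pattern was not counted, so this number has no background beside it.

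**Figure D2:**
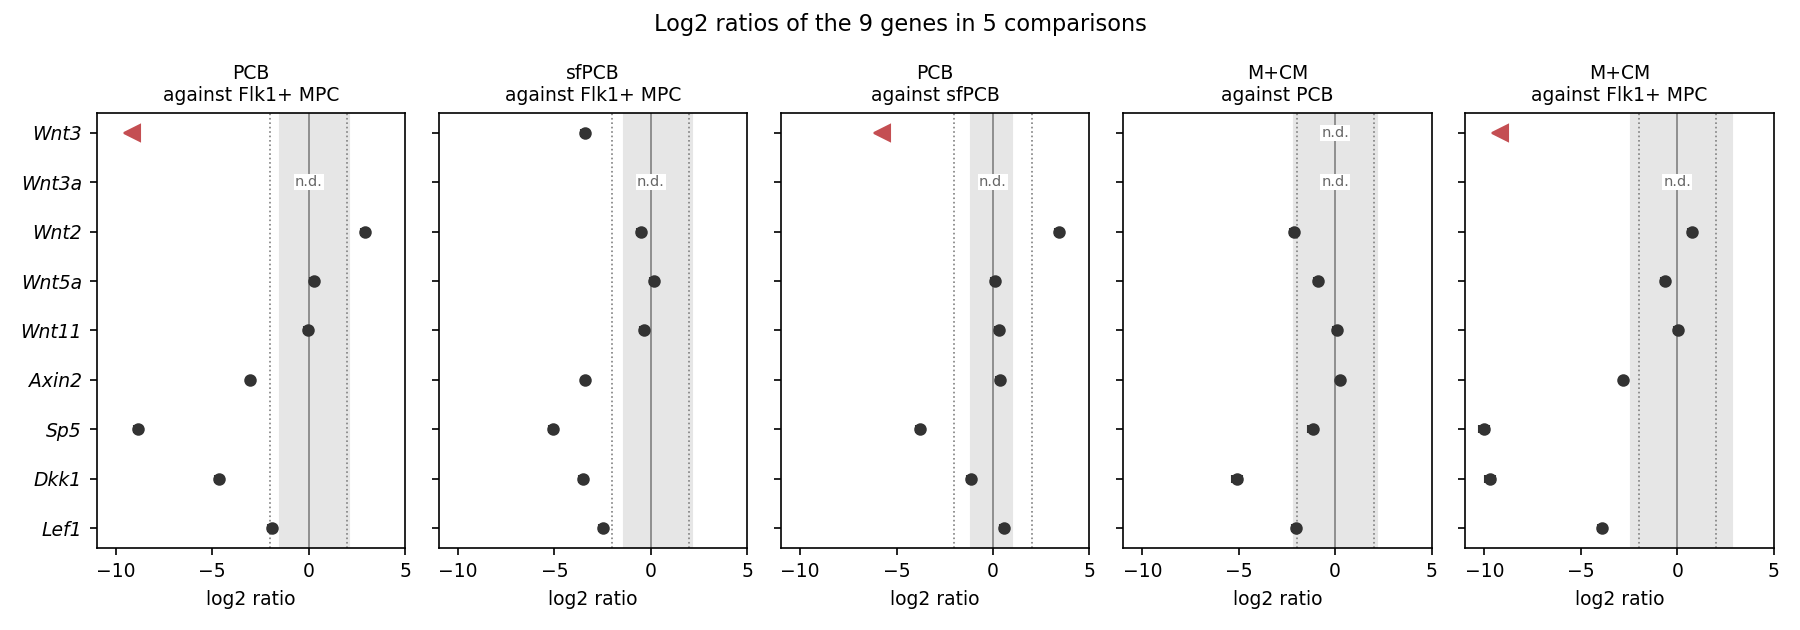
Log2 ratio of each gene in 5 comparisons, with the software's error as bars, triangles for bounds, n.d. where neither array was well above background, dotted lines at 4-fold and a grey band from the 5th to the 95th percentile of all genes compared. Sp5 reaches -10.02 and Dkk1 -9.72 in M+CMs against Flk1+ MPCs, and Wnt2 stands above the band in PCBs against sfPCBs at 3.42.

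The members with low signals in M+CMs reached them at different steps. Wnt3 was under the measurable range in PCBs already, and Sp5 was 466-fold below Flk1+ MPCs in PCBs and a further 2.23-fold lower in M+CMs. Dkk1 was lower at both steps, by log2 ratios of -4.64 and -5.08, the second of which was -3.47 with normexp. Axin2 had its lowest value in sfPCBs and Lef1 in M+CMs. The Euclidean distance between the mean-centered log2 signals of 2 genes over the 4 arrays was 1.52 for Wnt3 and Sp5, 4.12 for Wnt3 and Dkk1, and 9.90 for Wnt3 and Wnt2. These distances describe 4 points each, in which signals under the lowest well-above-background signal were raised to it.

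Genes with patterns most like the 3 widest members were sought among all genes with a curated RefSeq identifier that were well above background on the same arrays. A gene with several probes counted where at least 1 of them was, so its mean can lie below the lowest signal well above background, as for Six2 in M+CMs and Eomes in PCBs and M+CMs. For Sp5, with 14397 candidates, they were Six2 (distance 1.44), Otx2 (1.84) and Eomes (2.01), all of them transcription factors. Six2 went from 8541 in Flk1+ MPCs to 840 in sfPCBs, then 49.0 in PCBs and finally 12.8 in M+CMs. For Wnt3, with 141 candidates, they were Gsc (1.21), Gjb2 (1.54) and Evx1 (1.94), and Gsc and Evx1 are transcription factors of the primitive streak. For Dkk1, again with 14397 candidates, they were Mogat2 (1.23), Il17rd (1.63) and Grrp1 (1.74).

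The members were then set among the other genes of the pathway, with the members counted in their lists. Of the 23 Wnt/β-catenin target genes compared between PCBs and Flk1+ MPCs, 14 were at least 4-fold lower in PCBs, beside 2.82% of all genes, and 0 were at least 4-fold higher, beside 5.26%, with a median log2 ratio of -3.05 beside -0.19. Beside Axin2, Dkk1 and Sp5 the 14 held T, Tcf7, Nkd1, Rnf43, Lgr5, Apcdd1, Sp8, Cdx1, Cdx2, Tbx6 and Myc. In sfPCBs against Flk1+ MPCs 13 of 22 were lower and 1 was higher, beside 2.11% and 5.43% of all genes, and in M+CMs against Flk1+ MPCs 15 of 23 were lower and 0 higher, beside 7.12% and 8.996%. Between PCBs and sfPCBs 4 of 23 were lower and 1 was higher, beside 1.81% and 1.37% of all genes, with a median of -0.23. Several of these genes mark the primitive streak or posterior mesoderm as well as Wnt signaling, such as T, which was at 6554 in Flk1+ MPCs and 82.0 in sfPCBs and not well above background in PCBs or M+CMs. Cdx2, a posterior factor, was highest in sfPCBs, at 2195, against 233 in Flk1+ MPCs and 16.7 in PCBs.

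Of the Wnt ligands, 18 could be compared between PCBs and Flk1+ MPCs, 6 of which were at least 4-fold lower, beside 2.82% of all genes, and 1, Wnt2, at least 4-fold higher, a share near the 5.26% of all genes. Their median log2 ratio was -0.20 beside -0.19. Wnt5b, a β-catenin-independent ligand, followed the order of Wnt3 only in part, with 21240.1 in Flk1+ MPCs, then 1089 in sfPCBs and 1285 in PCBs, and 655 in M+CMs. Wnt6 was at 535, 42.2, 65.1 and 33.2 in the same order. On chromosome 11 Wnt3 lies next to Wnt9b, whose signals of 215 in Flk1+ MPCs, 98.8 in sfPCBs and 51.3 in PCBs also descended and which was not well above background in M+CMs. Wnt9a, next to Wnt3a, was well above background on all 4 arrays, between 77.3 and 291, unlike Wnt3a. Among genes with a span past 4-fold over the 4 arrays, 15 of 17 targets and 6 of 10 ligands were highest in Flk1+ MPCs, beside 1691 of 6201 among all genes (27.3%).

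**Figure D3:**
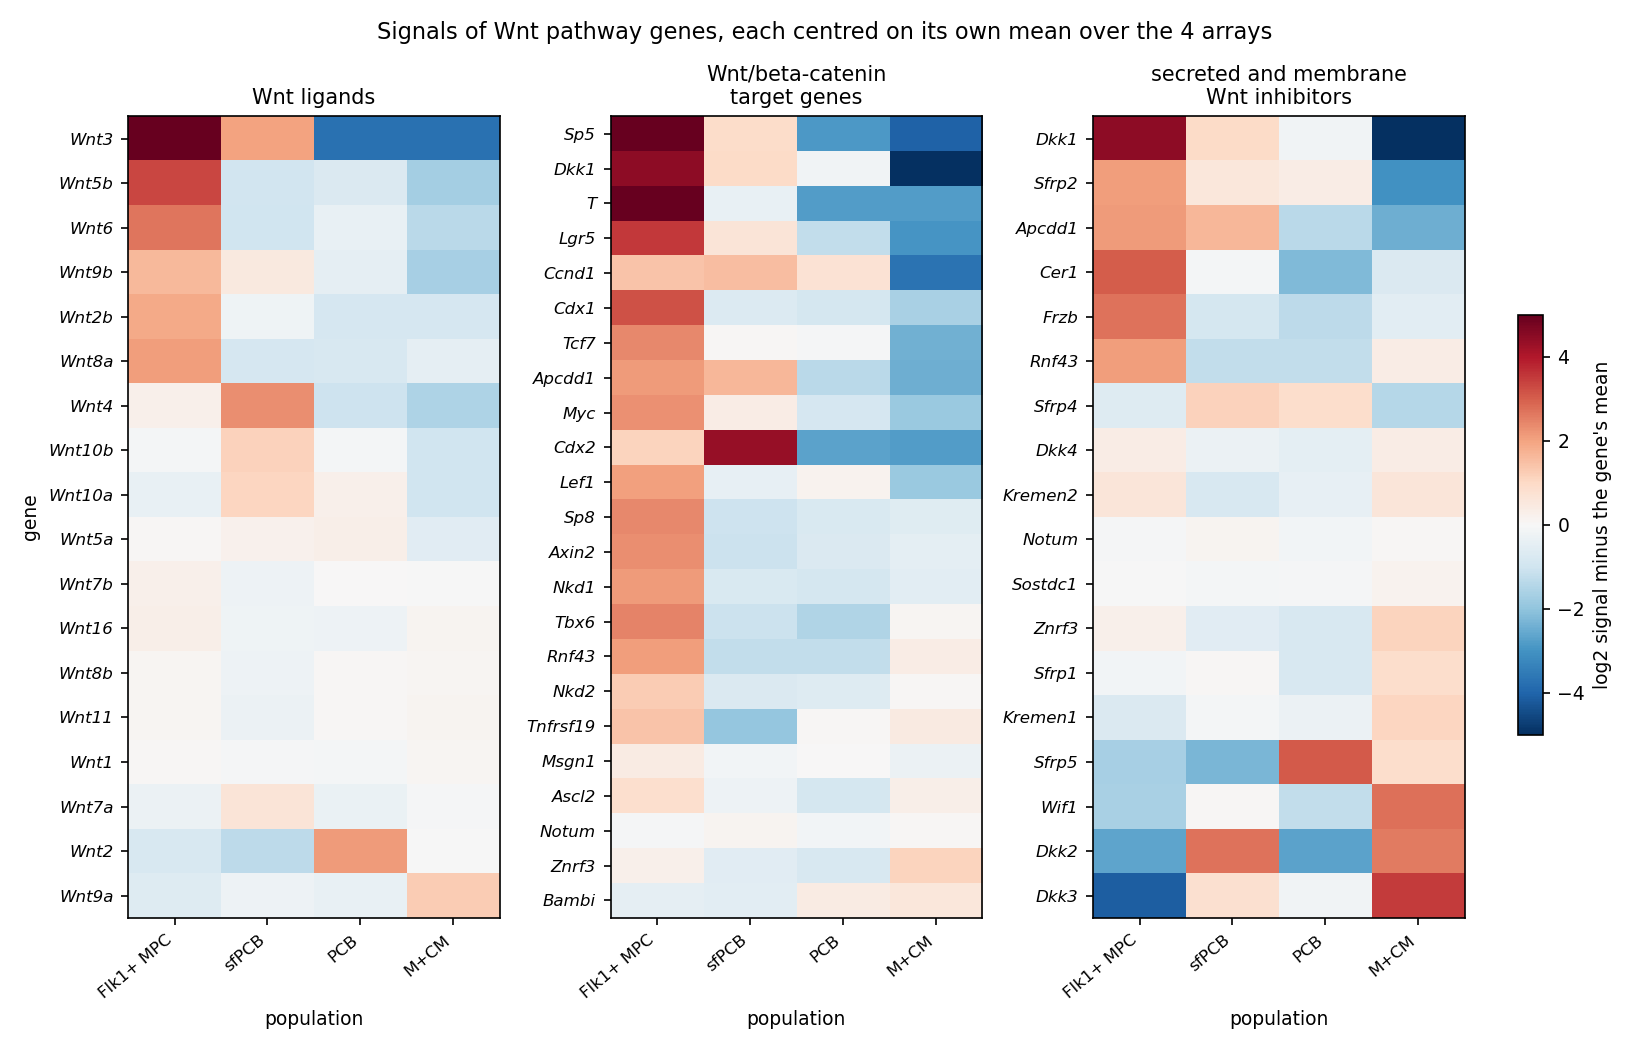
Mean-centered log2 signal of the Wnt ligands, Wnt/β-catenin target genes and secreted or membrane Wnt inhibitors in the 4 populations, 1 array each, on a color scale that ends at -5 and 5. Most target genes are highest in Flk1+ MPCs, with 15 of the 17 that spanned over 4-fold, beside 1691 of 6201 among all genes. Of the 18 inhibitors 7 are highest in Flk1+ MPCs, 7 in M+CMs, 3 in sfPCBs and 1 in PCBs. With no limit on the span, that split is near the one of all genes, with 9615, 10265, 3969 and 2679 of 26528 in the same order. Of the 11 inhibitors that spanned over 4-fold, 6 are highest in Flk1+ MPCs, beside the same 1691 of 6201. Of these 11, 2 are highest in M+CMs, 2 in sfPCBs and 1 in PCBs.

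Secreted and membrane inhibitors, to which Dkk1 also belongs, went both ways. In PCBs against Flk1+ MPCs 5 of 16 were at least 4-fold lower and 2 higher, beside 2.82% and 5.26% of all genes. Their median log2 ratio there was -0.94 beside -0.19. Between M+CMs and PCBs 3 of 18 were at least 4-fold higher and 4 lower, beside 5.82% and 5.72% of all genes, with a median log2 ratio of 0.94 beside 0.14 over all genes. Dkk3, a relative of Dkk1, was lowest in Flk1+ MPCs and highest in M+CMs, the reverse of Dkk1, at 284 in Flk1+ MPCs, then 8613 in sfPCBs and 4310.1 in PCBs, and 56047 in M+CMs. Sfrp5, a secreted Frizzled-related protein known in the early heart, shared with Wnt2 its highest signal in PCBs, at 7646, against 288 in Flk1+ MPCs, 188 in sfPCBs and 1683 in M+CMs, and was 40.6-fold higher in PCBs than in sfPCBs. Dkk2 was at 662 in sfPCBs and 601 in M+CMs and not well above background in Flk1+ MPCs or PCBs, at least 42.6-fold lower in PCBs than in sfPCBs.

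On the receiving side, 1 of 16 Frizzled receptors and co-receptors was at least 4-fold higher and 1 at least 4-fold lower in PCBs when set against Flk1+ MPCs, shares near those of all genes (5.26% and 2.82%). Fzd10 had the order of Sp5, at 2722 in Flk1+ MPCs, then 392 in sfPCBs and 71.0 in PCBs, and 25.6 in M+CMs. Fzd4 in PCBs was 7.24-fold above Flk1+ MPCs, and Fzd9 was 33.6-fold and Fzd1 4.65-fold higher in M+CMs than in PCBs. Among R-spondins and their receptors, which amplify the Wnt signal, 2 of 7 were lower and 1 was higher in the same comparison, beside the same shares. Lgr5, also a target, went from 1384 in Flk1+ MPCs to 183 in sfPCBs and 50.02 in PCBs and was not well above background in M+CMs. Rspo2 was at least 29.1-fold higher and Rspo4 at least 6.56-fold lower in sfPCBs than in Flk1+ MPCs, and Lgr4 was 9.29-fold lower in PCBs than in sfPCBs.

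Inside the cell, 1 of 18 cytoplasmic components was at least 4-fold higher and 0 lower in PCBs than in Flk1+ MPCs, near the 5.26% and 2.82% of all genes. β-catenin itself (Ctnnb1) was at 25744, 22801, 18755 and 15257 from Flk1+ MPCs to M+CMs, in the order used above. Prickle1 and Daam1 of the β-catenin-independent branch were in M+CMs 6.60-fold and 4.52-fold above Flk1+ MPCs. Other genes of the same list were lower in that comparison, such as Dvl2 (3.64-fold) and Vangl1 (log2 ratios of -1.58 and -1.98 on its 2 probes). At 4-fold, 2 of the 18 were higher and 0 lower in M+CMs than in Flk1+ MPCs, beside 8.996% and 7.12% of all genes. Of the TCF/LEF factors and co-activators, 1 of 8 was at least 4-fold lower in PCBs than in Flk1+ MPCs, beside 2.82% of all genes, and 2 were in M+CMs, beside 7.12%, namely Lef1 and Tcf7, which was 27.5-fold lower (log2 ratio -4.78), a value that includes a probe not well above background in M+CMs. Porcn, which attaches the lipid to Wnt proteins, was in M+CMs 4.91-fold above Flk1+ MPCs, and Wls, which carries them to the surface, had a log2 ratio of -0.95.

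**Figure D4:**
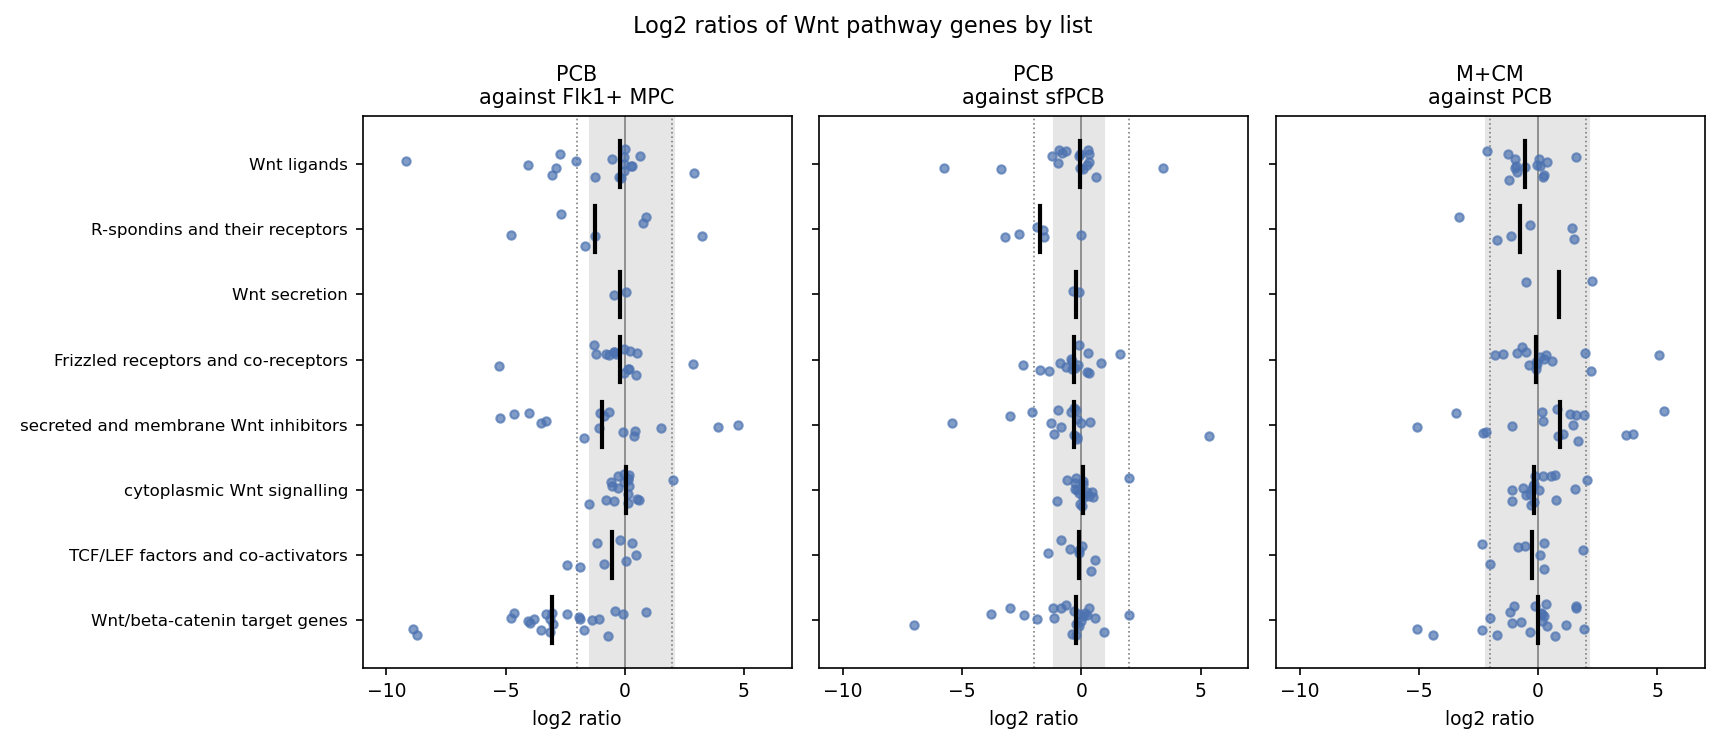
Log2 ratio of each gene of the 8 pathway lists in 3 of the comparisons, named above each panel, with black bars for the median of a list. The median of the target genes is -3.05 in PCBs against Flk1+ MPCs, -0.23 in PCBs against sfPCBs and 0.01 in M+CMs against PCBs, with single genes far from the median in each, such as Sp5 at -3.81 in the second and Dkk1 at -5.08 in the last.

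The labels were checked against the genes that define each population. Pdgfra, by which PCBs were sorted, was at 7237 in Flk1+ MPCs, then 3647 in sfPCBs and 9136 in PCBs, and 918 in M+CMs. The 2 probes of Kdr, which encodes Flk1, disagreed. The first was at 54864 in Flk1+ MPCs, then 4559 in sfPCBs and 768 in PCBs, and 2126 in M+CMs. The second was at 11263, 6661, 7272 and 7499 in the same order. On the first probe alone, sfPCBs lay above PCBs. Myh6, which encodes the αMHC that defines M+CMs, also had 2 probes. The first was at 457 in PCBs and 26555 in M+CMs, and not well above background in Flk1+ MPCs or sfPCBs. The second was at 116 in Flk1+ MPCs, then 128 in sfPCBs and 82857 in PCBs, and 478627 in M+CMs. The cardiomyocyte gene Tnnt2 was at 150.2, 3176, 145595 and 403180.4 from Flk1+ MPCs through sfPCBs and PCBs to M+CMs, opposite in order to Sp5.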

How the data were processed

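Total RNA of Flk1+ MPCs, sfPCBs, PCBs and M+CMs was measured with 1 array per population, and arrays were assigned to populations from the sample labels. The authors deposited spot intensities written by Agilent Feature Extraction 11.5.1.1 (array design on mm9), which subtracted a background and gave each spot an error, with no scaling between arrays. The deposited value table holds log2 of the same processed signal without scaling or centering, since 99.0% of 39429 probes differed from it by no more than 1e-06, with medians of 6.88, 7.40, 7.19 and 7.16 in the order above, and its direction does not arise with 1 color. It was used as an alternative only.

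Control spots and 135, 87, 126 and 144 flagged spots were left out, and 0 spots were saturated. Processed signals were scaled so that the 75th percentile of each array equaled the mean of the 4 (2198), and signals below the lowest signal among probes well above background were then raised to that level before log2 was taken. Spots of a probe, and several probes of a gene, entered as their mean log2 value. A probe was taken as well above background where this held, by the software, for a share of its spots of 0.5 or more, and a gene was compared where it was so on at least 1 of 2 arrays. Where it was so on only 1, the fold is a bound. A difference was counted at 4-fold.

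Gene symbols came from a RefSeq table (GRCm38.p6), in which the identifiers of 27507 of 39428 probes were found, for 20886 symbols. The files give probes no position, and no coordinates other than those of promoters are printed. Promoter sequences are from RefSeq.

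All members were named. Of each pathway list, counts are given, and up to 4 genes with the largest log2 ratio in any of 5 comparisons, others being named to show a pattern after their values were seen. For the 3 members with the widest span, the 3 nearest genes over the 4 arrays are named. The members and lists were chosen with earlier results of these data known. Alternatives were other scalings, normexp correction, other floors and detection rules, and a 2-fold threshold. The brightest probe of a gene was used as an alternative for the lists only. Normexp was run on the median spot and median background intensities. The counting was tested on simulated data. With 1 array per population, their number limits the precision, and no test was run. Python 3.11.15 with numpy 2.4.6, pandas 2.3.3 and matplotlib 3.10.9 was used, with R 4.3.3 and limma 3.58.1 for normexp and quantile normalization.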

Additional observations from a re-analysis of the deposited data

How the results depend on the processing

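No paired analysis was possible because each population had 1 array and the labels carry no replicate numbers, and for the same reason no replicate could be left out. The ratios near 0 of Wnt11 (against PCBs or Flk1+ MPCs) and of Wnt5a in PCBs against sfPCBs changed sign under some alternatives. In M+CMs against PCBs that of Wnt11 went from 0.08 to between -0.13 and 0.12. The sign of every other member's ratio stayed under all alternatives run for members. These did not include the choice of a gene's brightest probe. Read singly, the 2 probes of Axin2 differed in sign in M+CMs against PCBs, at 0.57 and -0.10 (error 0.25). Of 21 member differences of at least 4-fold, all 21 stayed past 4-fold without scaling, with quantile normalization, without a floor, from the deposited value table and with flagged spots kept. With the percentile taken over probes well above background on all arrays, and with an offset of 50, 20 stayed, without Lef1 in M+CMs against PCBs. With normexp 19 stayed, without Wnt2 and Lef1 in M+CMs against PCBs, so that 1 member in place of 3 was past 4-fold there. When both arrays had to be well above background 18 stayed, and the 3 ratios of Wnt3 against PCBs or M+CMs had no value. Genes past 4-fold in at least 1 comparison numbered 8 of the Wnt ligands and 5 with normexp. At 2-fold there were 9 Frizzled receptors and co-receptors in place of 4, 8 cytoplasmic components in place of 2, and 4 TCF/LEF factors and co-activators in place of 2. Omitting the scaling moved the median log2 ratio of all genes by -0.21 to 0.34, the percentile over detected probes by up to 0.17 and quantile normalization by up to -0.13. Of all log2 ratios of members recomputed, 294 moved by less than the software's error and 54 by more. The 294 include 36 from the rule for both arrays, which leaves the values as they were. They also include 39 from the deposited table, which holds the same processed signal. Omitting the floor cannot move a ratio of signals well above background. Without scaling 14 moved and 25 did not, with normexp 15 and 24, and with the offset 14 and 25. The fold of a gene near the background, as for Sp5 and Dkk1 in M+CMs, is limited by signal over background, and the bounds for Wnt3 by the floor.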
